A study of Homo sapiens with 12 samples.

Results

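Homologous recombination, the Fanconi anemia pathway and the DNA damage checkpoint were followed at the RNA level through 40 genes, chosen by name, of the 60558 gene identifiers shared by the deposited tables. All 40 carried the same identifier in both tables and had enough counts to be tested in both experiments. RNA-seq was performed on MDA-MB-231 cells, an established human triple-negative breast cancer (TNBC) line, and the purpose of the series was to find genes controlled by NONO, a paraspeckle RNA-binding protein, and by PKM2, a pyruvate kinase isoform. In the first experiment, 3 NONO knockdown (NONO_KD) libraries were compared with 3 negative control (NC) libraries, and in the second, 3 PKM2 knockdown (PKM2_KD) libraries were compared with 3 NC libraries of their own. The NC cells are labelled WT, the knockdown is attributed to siRNA in the design text of the series, and no other treatment or time point is given for any group. All groups came from 1 cell line, and the labels do not say whether the 3 repeats were separate cultures, so p-values measure the spread between these libraries, which may be technical.

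Homologous recombination repairs a broken chromosome by copying the sister chromatid, and it operates in the S and G2 phases. The MRE11-RAD50-NBN complex binds the broken end and activates the kinase ATM, whereas single-stranded DNA activates ATR through ATRIP and TOPBP1, and these apical kinases switch on CHEK2 and CHEK1, which hold the cell cycle. RNF8 and RNF168 place ubiquitin on chromatin around the break, where TP53BP1 restrains resection of the end and BRCA1 with BARD1 favors it. BRCA2, recruited through PALB2, then acts on the resected end, and the BCDX2 complex (RAD51B, RAD51C, RAD51D and XRCC2) takes part in the same step. The Fanconi core complex, whose E3 ligase subunit is FANCL, ubiquitinates FANCD2 and FANCI when a replication fork meets a crosslink between the strands. Defects in some of these genes, not in all of them, are known for causing hereditary breast cancer, Fanconi anemia or sensitivity to PARP inhibitors and platinum drugs.

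Total estimated counts were between 19861762 and 20981712 per library in the NONO experiment and between 24097948 and 28455268 in the PKM2 experiment, and the 40 genes held 0.177% to 0.227% of them. NONO fell by 2.57 on the log2 scale in its own knockdown and PKM, the gene that encodes PKM2, fell by 3.32 in the other. ESR1 stayed at or below 0.12 TPM and PGR at or below 0.41 TPM in all 12 libraries, ERBB2 lay between 13.7 and 35.2 TPM and the mesenchymal gene VIM between 3291 and 4466 TPM. NC replicate 1 of the NONO experiment and replicate 3 of the PKM2 knockdown lay farthest from the other libraries of their groups, and the counts of called genes below are also given without them.

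The level of each gene was compared on the TPM scale, which accounts for transcript length. In NC cells of the NONO experiment, mean TPM ran from 4.07 for FANCF, a core complex adaptor, to 68.9 for RAD51C, a subunit of the BCDX2 complex, with a median of 20.9 against 14.4 over all genes tested. The corresponding range in NC cells of the PKM2 experiment was 3.11 to 70.4, again from FANCF to RAD51C, with a median of 21.0 against 12.9. RAD51C (68.9 ± 14.02 TPM, SD, n = 3), FANCI (62.1 ± 4.81) and TOPBP1 (59.1 ± 4.63) headed the first experiment, and their SDs overlapped. BRCA1 (23.5 ± 0.4) and BRCA2 (23.4 ± 3.39) were next to each other near the middle of the order and did not differ beyond their spread. At the foot of the order were RAD50 (5.61 ± 0.207), ATRIP (4.88 ± 0.181) and FANCF (4.07 ± 0.656). Within the MRE11 complex, RAD50 was listed below MRE11 (20.6 ± 2.12) and NBN (28.4 ± 4.68), but the RAD50 level is uncertain because 79.7% of its exonic bases are shared with AC116366.3 on the same strand. The tables were normalized separately, so no level was tested across them.

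**Figure D1:**
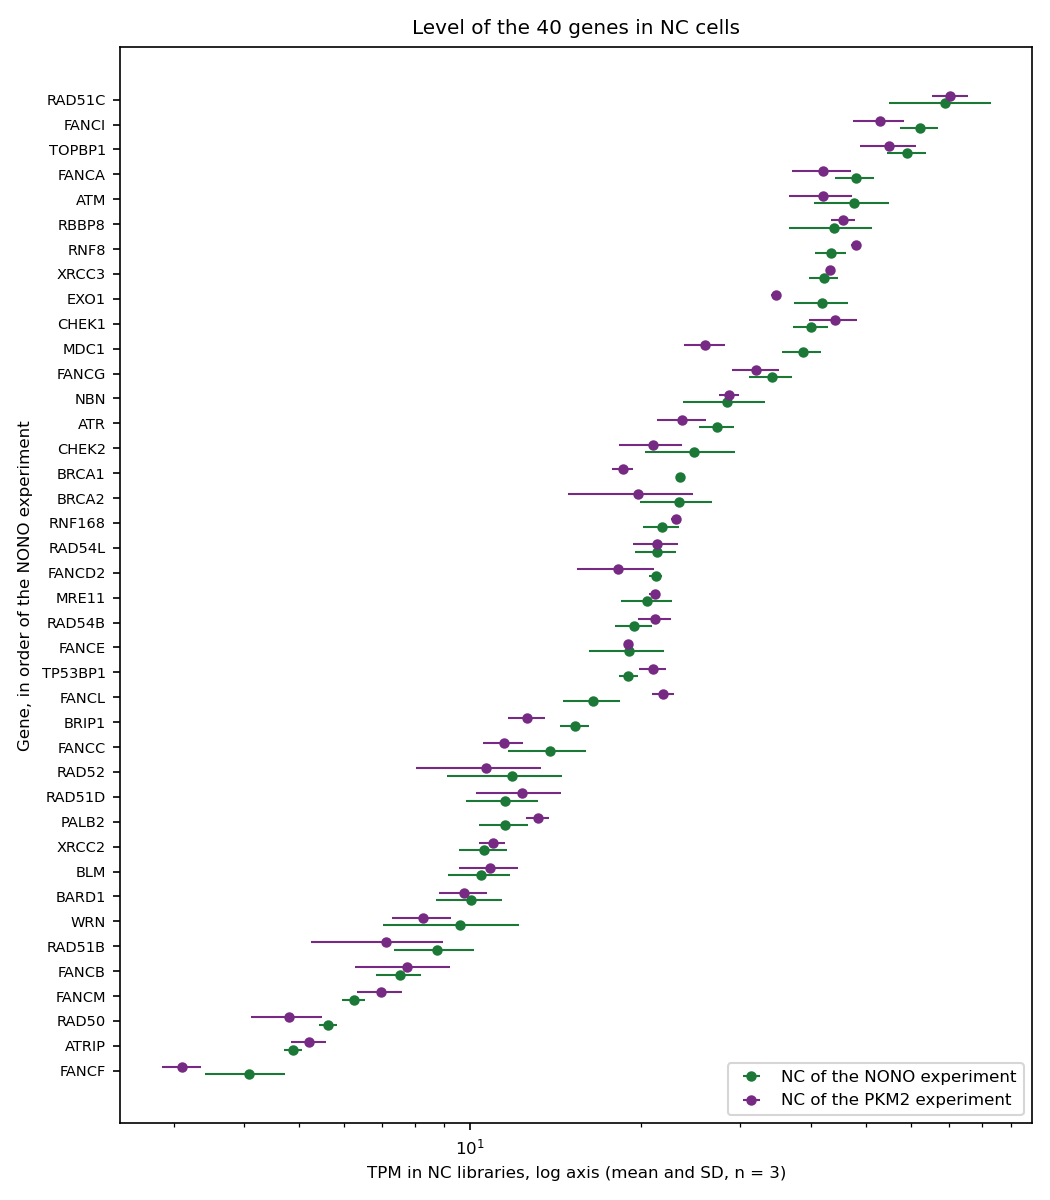
TPM of each of the 40 genes in NC cells on a log axis, as points for the mean and bars for the SD of 3 libraries, in green for the NONO experiment and purple for the PKM2 experiment. RAD51C is the highest gene and FANCF the lowest in both experiments.

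Promoters of these genes are known to hold binding sites of E2F factors, which switch on genes at the entry into S phase. Promoter windows of 300 bases, from 250 before to 50 after the RefSeq start (GRCh38.p14), were matched by symbol for 36 of the 40 genes, and NBN, WRN, RAD54B and FANCI had no entry. The E2F word TTCCCGC was searched on both strands, together with its variants TTGGCGC as well as TTCGCGC, and overlapping matches of different words were kept. At least 1 of these words was found in 18 of the 36 windows (50%), against 11.2% of all 27305 windows. The CCAAT word stood in 44.4% of the members' windows against 35.7% of all, and the CHR word TTTGAA in 11.1% against 15.4%. The members' windows were also richer in G and C, with a median of 64.5% against 58.3%. These matches describe letters in a window and were not tested for binding. The stretches below show 1 E2F word for each of 8 genes described further on for the PKM2 experiment, each with 10 bases on either side, 5′ to 3′ on the strand of the gene, with the word in capitals. Words that read GCGGGAA or GCGCGAA are the reverse complement of a searched word.
TOPBP1 (chr3:133661935-133661961, minus strand): ggccgcgcggTTGGCGCgaaagtcggt
BARD1 (chr2:214809663-214809689, minus strand): cgtcccagacGCGGGAAgagcttggcc
BRIP1 (chr17:61863510-61863536, minus strand): ggggcgggagGCGGGAAttcgtctcgg
FANCE (chr6:35452346-35452372, plus strand): ttccgacagcGCGGGAAcggctgcggc
FANCL (chr2:58241408-58241434, minus strand): ctccaggatcTTCCCGCcaaggctggg
FANCD2 (chr3:10026425-10026451, plus strand): gtcgggcctgGCGGGAAagtcgaaaac
XRCC2 (chr7:152676104-152676130, minus strand): ggcgttggtgGCGGGAAagttgagtct
FANCC (chr9:95317738-95317764, minus strand): cgtcggaattTTCCCGCgacgccgcgg

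The word GCGGGAA occurred in 5 of these 8 stretches, beginning between 2 bases before the annotated start (FANCD2) and base 22 after it (XRCC2). In TOPBP1, GCGCGAA overlaps the marked word and is not set in capitals. TP53BP1 and FANCC, the members with the largest fall and rise in the PKM2 experiment, are shown with the whole 250 bases before the start, and CHEK1 is added as a checkpoint kinase whose RNA rose in both experiments. Capitals mark the E2F words in FANCC, its CHR word at the left end, and ATTGG, the reverse complement of CCAAT, in TP53BP1 and CHEK1. The TP53BP1 window follows the RefSeq start, at which 1 of its 7 coding transcripts in GENCODE 29 begins. The BRCA1 window lay at the outermost of its annotated starts, shared by 1 of 26 coding transcripts, and is not shown.
TP53BP1 (chr15:43510641-43510890, minus strand): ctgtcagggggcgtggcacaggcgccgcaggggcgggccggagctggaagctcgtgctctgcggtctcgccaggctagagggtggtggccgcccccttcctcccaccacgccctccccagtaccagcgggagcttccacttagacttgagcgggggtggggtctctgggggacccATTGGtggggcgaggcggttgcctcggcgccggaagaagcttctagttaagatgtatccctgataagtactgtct
FANCC (chr9:95317710-95317959, minus strand): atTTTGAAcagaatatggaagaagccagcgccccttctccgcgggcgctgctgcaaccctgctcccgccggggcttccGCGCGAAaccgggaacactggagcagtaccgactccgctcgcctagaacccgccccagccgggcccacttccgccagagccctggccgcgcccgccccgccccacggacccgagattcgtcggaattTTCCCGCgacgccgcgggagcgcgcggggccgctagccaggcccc
CHEK1 (chr11:125625979-125626228, plus strand): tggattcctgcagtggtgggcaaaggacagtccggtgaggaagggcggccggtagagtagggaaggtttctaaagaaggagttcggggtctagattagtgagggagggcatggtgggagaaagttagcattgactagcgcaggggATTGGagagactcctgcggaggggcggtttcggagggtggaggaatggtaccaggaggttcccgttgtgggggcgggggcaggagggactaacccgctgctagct

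NONO knockdown moved the 40 genes little. By edgeR's quasi-likelihood test with an adjusted P below 0.05, 10 genes rose (CHEK1, ATM, MRE11, MDC1, BLM, WRN, BRCA1, XRCC2, RAD54L and FANCD2), 4 fell (TP53BP1, RNF168, BRIP1 and RAD54B) and 26 were not called. Over all 14832 genes tested, 16.2% rose and 17.2% fell, so the share of members that rose (25%) was above that of all genes and the share that fell (10%) below it. The median log2 fold change was 0.12 over the members and -0.01 over all genes tested. No member was a DEG by the cutoffs of the study, more than a 2-fold change and an unadjusted P below 0.05, which 0.789% of all genes passed upward and 2.16% downward. By the same edgeR test 22 members had an unadjusted P below 0.05, but the share of all genes below it was not counted. DESeq2 likewise placed no member past the fold cutoff. Without NC replicate 1, 18 genes rose and 6 fell, where 21% and 20.2% of all genes did. On log2(TPM + 1), limma called 3 higher (MRE11, CHEK1 and RAD54L) and 3 lower (TP53BP1, BRIP1 and RAD54B), with a median of 0.05 on a scale where the median of all genes was -0.05. The share of all genes called on that scale was not counted. ATM, MDC1, BLM, WRN, BRCA1, XRCC2, FANCD2 and RNF168 were not called on that scale. In bulk RNA, fewer cells expressing a gene and less of its RNA per cell cannot be told apart.

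**Figure D2:**
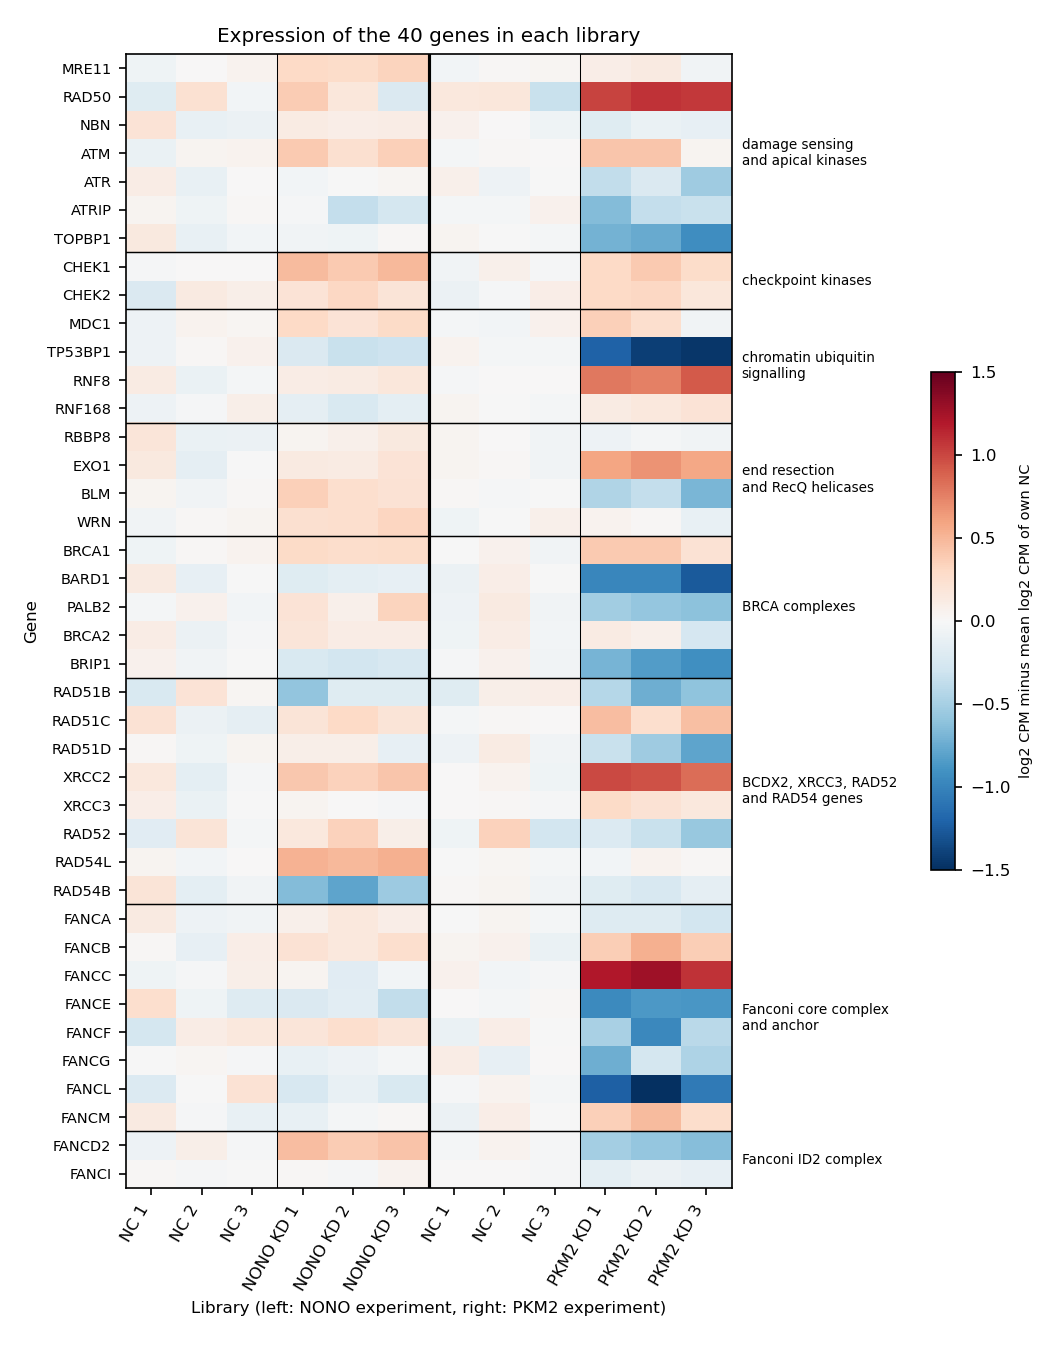
Each row is 1 of the 40 genes, grouped by role, and each column 1 library. Color gives log2 CPM minus the mean log2 CPM of the NC libraries of the same experiment, clipped at 1.5. The NONO knockdown columns are pale apart from RAD54L, CHEK1 and FANCD2 in red and RAD54B in blue, whereas the PKM2 knockdown columns hold deep blue rows (TP53BP1, FANCL, BARD1) and deep red rows (FANCC, RAD50, XRCC2).

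Among the sensors and apical kinases, MRE11 and ATM rose after NONO knockdown and the other 5 genes were not called. ATM, the kinase activated by double-strand breaks, stood at 133, 147 and 148 CPM (counts scaled to the total of the library, TMM-normalized) in NC libraries and at 188, 169 and 183 CPM in knockdown libraries. The groups did not overlap, and ATM rose by 0.33 on the log2 scale (SE 0.055, adjusted P = 0.000831). Its TPM values overlapped, and limma on log2(TPM + 1) gave 0.20 with an adjusted P of 0.234. ATR, the kinase that answers to stalled forks, stood at 115, 98.6 and 107 CPM in NC libraries and at 103, 106 and 109 CPM after knockdown. These values were interleaved (log2 fold change -0.01, SE 0.057, adjusted P = 0.926). CHEK1, the effector kinase downstream of ATR, was at 70.9, 72.3 and 72.3 CPM in NC libraries and at 99.9, 94.2 and 100.2 CPM after knockdown. Every knockdown library was above every NC library, a rise of 0.45 (SE 0.046, adjusted P = 3.27e-05). CHEK2, its counterpart downstream of ATM, had a log2 fold change of 0.23 and was not called (adjusted P = 0.0975).

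The chromatin factors moved in both directions after NONO knockdown. MDC1, the adaptor that reads phosphorylated histone H2AX, rose by 0.26, with 0.07 and an adjusted P of 0.569 by limma on log2(TPM + 1). TP53BP1 was at 82.6, 88.3 and 91.6 CPM in NC libraries and at 75.3, 69.2 and 70.3 CPM in knockdown libraries. The groups were separate, and the gene fell by 0.29 (SE 0.055, adjusted P = 0.00196). RNF168, a ubiquitin ligase for histone H2A, was at 78.5, 81.5 and 88.1 CPM against 75.4, 70.3 and 74.9 CPM, and fell by 0.17 (SE 0.056, adjusted P = 0.0348). That call was near the threshold, since the adjusted P was 0.0631 in DESeq2 and 0.183 without NC replicate 3, and it was above 0.05 on omitting any 1 library other than NC replicate 1. Of the resection factors, the RecQ helicases BLM and WRN rose by 0.28 and 0.27 on the count scale, while the nuclease EXO1 and its partner in resection RBBP8 (CtIP) were not called. On log2(TPM + 1), limma gave 0.25 for BLM (adjusted P = 0.144) and 0.02 for WRN (adjusted P = 0.943).

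BRCA1 rose after NONO knockdown and BRCA2 was not called. BRCA1 stood at 51.8, 54.8 and 56.2 CPM in NC libraries and at 66.4, 65.0 and 65.9 CPM after knockdown, a rise of 0.28 (SE 0.051, adjusted P = 0.00166). All knockdown values exceeded all NC values, but limma on log2(TPM + 1) gave BRCA1 0.30 with an adjusted P of 0.103. BRCA2 was at 91.5, 80.0 and 83.5 CPM in NC libraries and at 96.4, 91.6 and 92.0 CPM after knockdown. Those groups touched but did not overlap (log2 fold change 0.14, SE 0.056, adjusted P = 0.0845), and the value for BRCA2 was -0.06 by limma on log2(TPM + 1). BRIP1, the BRCA1-bound helicase, was at 64.4, 59.4 and 61.2 CPM against 52.6, 50.9 and 52.2 CPM, and fell by 0.25 (SE 0.052, adjusted P = 0.00383) with no overlap. BARD1, the obligate partner of BRCA1, was at 35.4, 29.8 and 32.1 CPM in NC libraries and at 28.5, 29.3 and 29.8 CPM after knockdown. Its groups met at 29.8 CPM and it was not called (log2 fold change -0.15, SE 0.075, adjusted P = 0.153).

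The largest changes after NONO knockdown belonged to the RAD54 translocases, which move along DNA during strand exchange, and they were opposite in sign. RAD54L stood at 31.3, 29.6 and 30.5 CPM in NC libraries and at 43.6, 42.8 and 44.0 CPM after knockdown, a rise of 0.51 (SE 0.058, adjusted P = 6.61e-05). RAD54B stood at 40.9, 32.4 and 34.5 CPM in NC libraries and at 22.8, 20.7 and 24.6 CPM after knockdown, and fell by 0.66 (SE 0.097, adjusted P = 0.000393). Neither pair of groups overlapped. The RAD54B count is uncertain, because 59.1% of its exonic bases are shared with FSBP on the same strand, and FSBP itself rose by 0.39 (adjusted P = 0.0425). RAD54L shares 25.1% of its exonic bases with LRRC41 on the opposite strand, and LRRC41 rose by 0.27. XRCC2, a subunit of the BCDX2 complex, was at 40.3, 32.8 and 35.9 CPM against 47.9, 45.9 and 48.4 CPM, a rise of 0.38 (SE 0.075, adjusted P = 0.00232), and 0.31 with an adjusted P of 0.0517 by limma on log2(TPM + 1). The other 5 genes of that group (RAD51B, RAD51C, RAD51D, XRCC3 and RAD52) had log2 fold changes between -0.32 for RAD51B and 0.22 for RAD51C and were not called.

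Within the Fanconi pathway, NONO knockdown raised FANCD2, while none of the 8 core complex genes was called by edgeR or by DESeq2, although 2 of them had an unadjusted P below 0.05. FANCD2 was at 40.5, 45.3 and 42.3 CPM in NC libraries and at 58.8, 55.6 and 57.4 CPM after knockdown. These groups were well apart, a rise of 0.42 (SE 0.059, adjusted P = 0.00028). Its TPM values overlapped, however, at 21.3 ± 0.571 in NC and 23.3 ± 4.5 after knockdown (SD, n = 3), and limma on log2(TPM + 1) gave 0.11 with an adjusted P of 0.588. FANCI, the partner of FANCD2, was not called. The core complex genes ran from -0.26 for FANCE to 0.21 for FANCB, with FANCC, an adaptor subunit, at 30.2, 31.2 and 33.6 CPM in NC libraries and at 32.5, 28.1 and 30.8 CPM after knockdown. FANCL was at 11.2, 12.9 and 15.1 CPM against 11.0, 12 and 11.1 CPM. FANCC and FANCL groups overlapped, with log2 fold changes of -0.05 (SE 0.075) and -0.21 (SE 0.118).

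PKM2 knockdown changed most of the 40 genes, in both directions. By edgeR's quasi-likelihood test with an adjusted P below 0.05, 19 genes fell, 14 rose and 7 were not called (MRE11, MDC1, RBBP8, WRN, BRCA2, RAD52 and RAD54L). Over all 15524 genes tested, 34.7% fell and 33.6% rose, so the 47.5% of members that fell exceeded the share of all genes and the 35% that rose was close to it. The median log2 fold change was -0.09 over the members and -0.01 over all genes tested. On the DEG cutoff, TP53BP1, FANCL and BARD1 fell and FANCC and RAD50 rose, where 13.8% of all genes fell and 7.05% rose by that cutoff. Without knockdown replicate 3, 19 genes fell and 16 rose, where 34.5% and 33.8% of all genes did. On log2(TPM + 1), limma called 17 lower and 8 higher, with a median of -0.23, on a scale where the median of all genes was -0.09. As for NONO, the share of all genes called on that scale was not counted. ATM, CHEK1, CHEK2, RNF168, RAD51B, FANCA, FANCB and FANCM were not called on that scale.

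**Figure D3:**
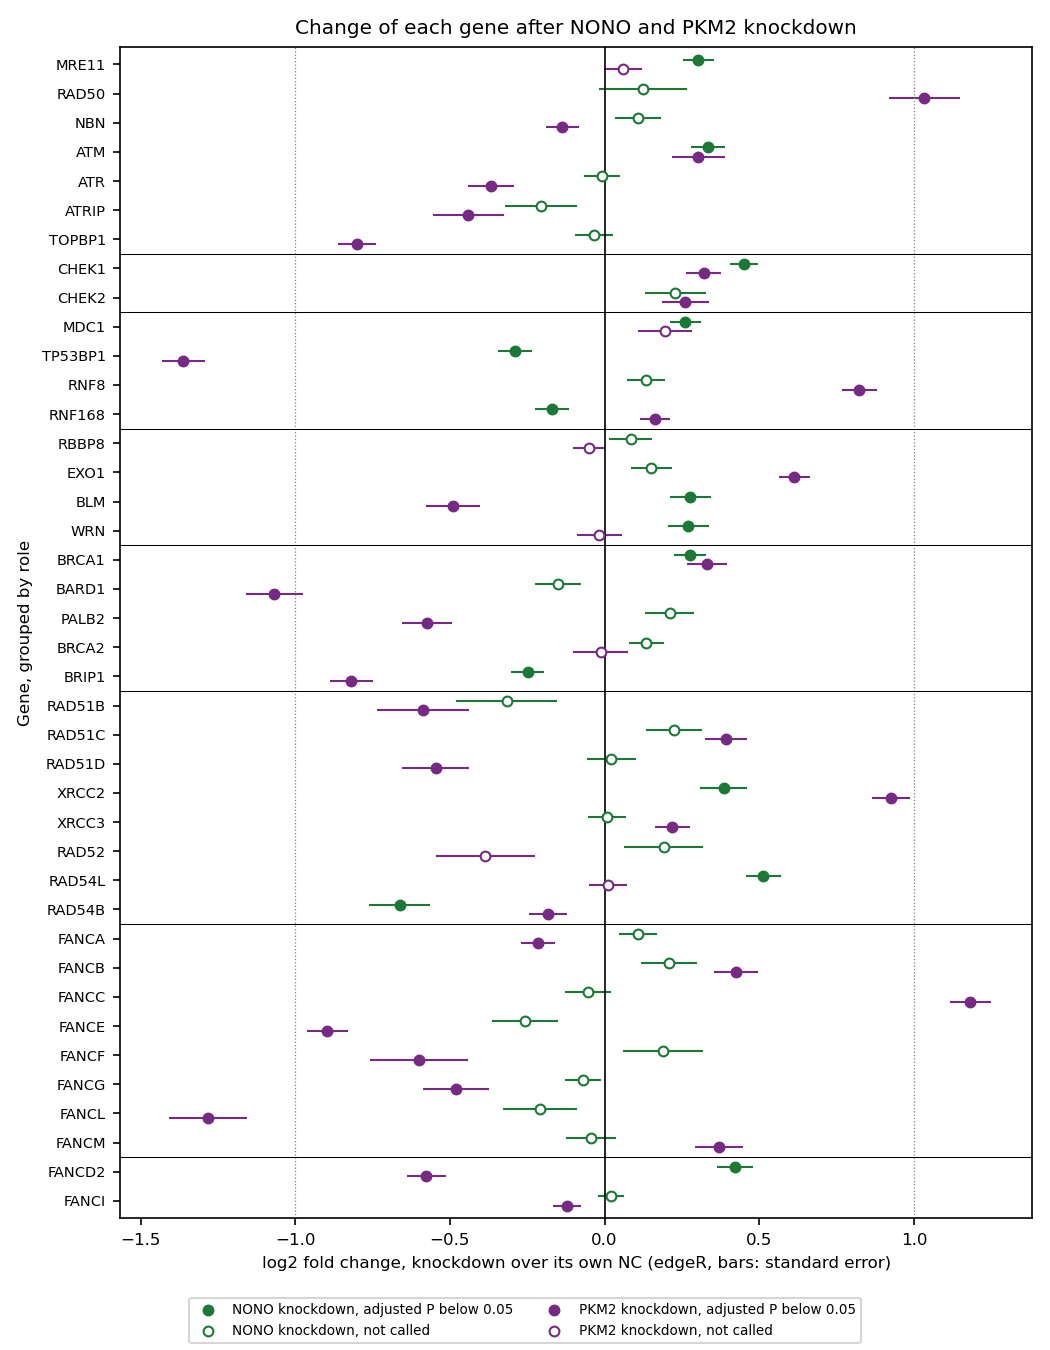
The log2 fold change of each gene over its own NC group, with the standard error as a bar, in green for NONO and purple for PKM2 knockdown. Filled points had an adjusted P below 0.05 and open points did not, and dotted lines mark a fold change of 2. The NONO points lie between -0.66 and 0.51 and the PKM2 points between -1.36 and 1.18.

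TP53BP1, which shields broken ends from resection, showed the largest fall of the 40 genes after PKM2 knockdown. It was at 81.3, 77.1 and 76.9 CPM in NC libraries and at 33.7, 29.4 and 28.4 CPM after knockdown. The groups were far apart, and TP53BP1 fell by 1.36 (SE 0.070, adjusted P = 1.11e-08), to 0.389 times its NC level. Of its exonic bases, 28.7% are shared with TUBGCP4 on the opposite strand, whose own log2 fold change was 0.03. RNF8, the ubiquitin ligase upstream of TP53BP1 recruitment, moved the other way, from 57.7, 58.7 and 58.7 CPM to 101, 98.4 and 110.4 CPM. Its rise was 0.82 (SE 0.057, adjusted P = 1.21e-07), with no overlap. RNF168 rose by 0.16 on the count scale (adjusted P = 0.0119), while limma on log2(TPM + 1) gave 0.005 (adjusted P = 0.947), and MDC1 was not called.

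Among the sensors and kinases, RAD50 and TOPBP1 changed most after PKM2 knockdown. RAD50, the ATPase of the MRE11 complex, was at 14.4, 14.5 and 10.2 CPM in NC libraries and at 26.0, 27.2 and 26.7 CPM after knockdown, a rise of 1.03 (SE 0.115, adjusted P = 7.62e-06). All 3 knockdown values lay above all NC values. The count shares the uncertainty of its level, and AC116366.3, the gene that overlaps RAD50, rose by 0.97. The other members of that complex moved little, with MRE11 at 0.06 and not called and NBN at -0.14. The NBN call (adjusted P = 0.0398) held in 2 of 6 fits that each left out 1 library and not in DESeq2 (adjusted P = 0.0876). TOPBP1, the activator of ATR, was at 152, 148 and 145 CPM in NC libraries and at 90.8, 87.5 and 77.5 CPM after knockdown, and fell by 0.80 (SE 0.061, adjusted P = 3.14e-07) with the groups well apart.

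On the count scale, ATR and ATRIP RNA was lower after PKM2 knockdown and CHEK1 RNA higher. Genes of the checkpoint list given further on went both ways. RAD9A rose by 0.94, HUS1 by 0.68 and RAD17 by 0.37, whereas RAD1 fell by 0.16 and CLSPN by 0.39. ATR was at 97.0, 87.4 and 91.5 CPM in NC libraries and at 71.1, 79.3 and 63.7 CPM after PKM2 knockdown, and fell by 0.37 (SE 0.076, adjusted P = 0.00103). Its partner ATRIP fell by 0.44, but 27.9% of the exonic bases of ATRIP are shared with TREX1 on the same strand (-0.27, not called). CHEK1 was at 66.8, 73.2 and 68.3 CPM in NC libraries and at 85.2, 90.98 and 83.8 CPM after knockdown, a rise of 0.32 (SE 0.057, adjusted P = 0.000355). ATM was at 119, 123 and 122 CPM in NC libraries and at 162, 163 and 126 CPM after knockdown, a rise of 0.30 (SE 0.085, adjusted P = 0.00759). For ATR, CHEK1 and ATM the groups were separate, although ATM in knockdown replicate 3 lay just above the NC libraries. CHEK2 rose by 0.26 (adjusted P = 0.00956). On log2(TPM + 1) by limma, the kinases that rose did not pass. The values were 0.14 for CHEK1 (adjusted P = 0.209), 0.11 for CHEK2 (adjusted P = 0.464) and 0.30 for ATM (adjusted P = 0.0655). The falls of ATR and ATRIP did pass.

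BRCA1 and its binding partners moved apart after PKM2 knockdown. BRCA1 was at 49.3, 51.7 and 47.6 CPM in NC libraries and at 64.7, 64.8 and 57.4 CPM after knockdown, a rise of 0.33 (SE 0.064, adjusted P = 0.000662) with no overlap. BARD1, which forms the ubiquitin ligase with BRCA1, was at 25.1, 28.6 and 26.6 CPM in NC libraries and at 13.6, 13.5 and 11.2 CPM after knockdown. Its groups were far apart and it fell by 1.07 (SE 0.093, adjusted P = 8.78e-07). On the TPM scale, BARD1 went from 9.77 ± 0.956 to 4.33 ± 0.374 and BRCA1 from 18.6 ± 0.768 to 23.2 ± 1.47 (SD, n = 3). BRIP1 was at 51.9, 55.3 and 51.0 CPM in NC libraries and at 32.4, 29.5 and 27.8 CPM after knockdown, and fell by 0.82 (SE 0.069, adjusted P = 6.79e-07). PALB2, which bridges BRCA1 and BRCA2, fell by 0.58. BRCA2 was at 64.5, 72.4 and 65.3 CPM in NC libraries and at 73.1, 70.8 and 56.5 CPM after knockdown, and these groups overlapped (log2 fold change -0.01, SE 0.089, adjusted P = 0.906).

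The genes of the BCDX2 complex and XRCC3 split as well. XRCC2 was at 39.8, 41.1 and 37.9 CPM in NC libraries and at 78.4, 76.5 and 70.7 CPM after PKM2 knockdown, a rise of 0.93 (SE 0.061, adjusted P = 8.43e-08) with no overlap. RAD51C rose by 0.39 and XRCC3 by 0.22, whereas RAD51B fell by 0.59 and RAD51D by 0.55. Thus, within the BCDX2 complex, RAD51B and RAD51D RNA was lower and RAD51C and XRCC2 RNA higher. XRCC3 shares 76.7% of its exonic bases with KLC1 on the opposite strand, which rose by 0.32. RAD54B fell by 0.18, RAD54L had a log2 fold change of 0.01 and the annealing factor RAD52 one of -0.39. The last 2 genes were not called. LRRC41, which covers 25.1% of the RAD54L exonic bases, was at -2.09 in this experiment. Whether LRRC41 reads entered the RAD54L count was not tested. The RAD54B call held in 3 of 6 fits that left out 1 library and not in DESeq2 (adjusted P = 0.0557), and RAD51B had an adjusted P of 0.0899 by limma on log2(TPM + 1). Of the resection factors, EXO1 rose by 0.61 (adjusted P = 6.35e-07) and BLM fell by 0.49 (adjusted P = 0.000341).

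All 8 genes of the Fanconi core complex and its anchor FANCM changed after PKM2 knockdown, with 5 lower (FANCA, FANCE, FANCF, FANCG and FANCL) and 3 higher (FANCB, FANCC and FANCM), where 34.7% of all genes fell and 33.6% rose. FANCL was at 16.1, 16.8 and 15.9 CPM in NC libraries and at 6.96, 5.24 and 7.81 CPM after knockdown, and fell by 1.28 (SE 0.127, adjusted P = 2.79e-06). FANCE was at 31.7, 30.9 and 32.0 CPM in NC libraries and at 16.3, 17.3 and 17.2 CPM after knockdown, and fell by 0.90 (SE 0.066, adjusted P = 2.2e-07). Neither pair of groups overlapped. FANCL shares 18.7% of its exonic bases with VRK2 on the opposite strand, whose log2 fold change was -0.17 and not called. FANCC, which binds FANCE directly, went the other way, from 27.3, 25.4 and 25.9 CPM in NC libraries to 60.1, 63.1 and 55.4 CPM after knockdown. This was the largest rise of the 40 genes, 1.18 (SE 0.066, adjusted P = 2.29e-08), or 2.27 times the NC level. FANCB rose by 0.42 and FANCM by 0.37, but limma on log2(TPM + 1) gave 0.13 and 0.10 for them with adjusted P of 0.477 and 0.427. By the same limma fit FANCA had an adjusted P of 0.0509. FANCA shares 23.6% of its exonic bases with ZNF276 on the opposite strand, and ZNF276 rose by 0.31. FANCD2, the substrate of the complex, was at 36.7, 38.7 and 37.0 CPM in NC libraries and at 26.2, 25.1 and 24.1 CPM after knockdown, and fell by 0.58 (SE 0.063, adjusted P = 6.17e-06). FANCI was at -0.12 on the log2 scale (adjusted P = 0.0353), a call that held in 1 of 6 fits that left out 1 library and not in DESeq2 (adjusted P = 0.0907).

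**Figure D4:**
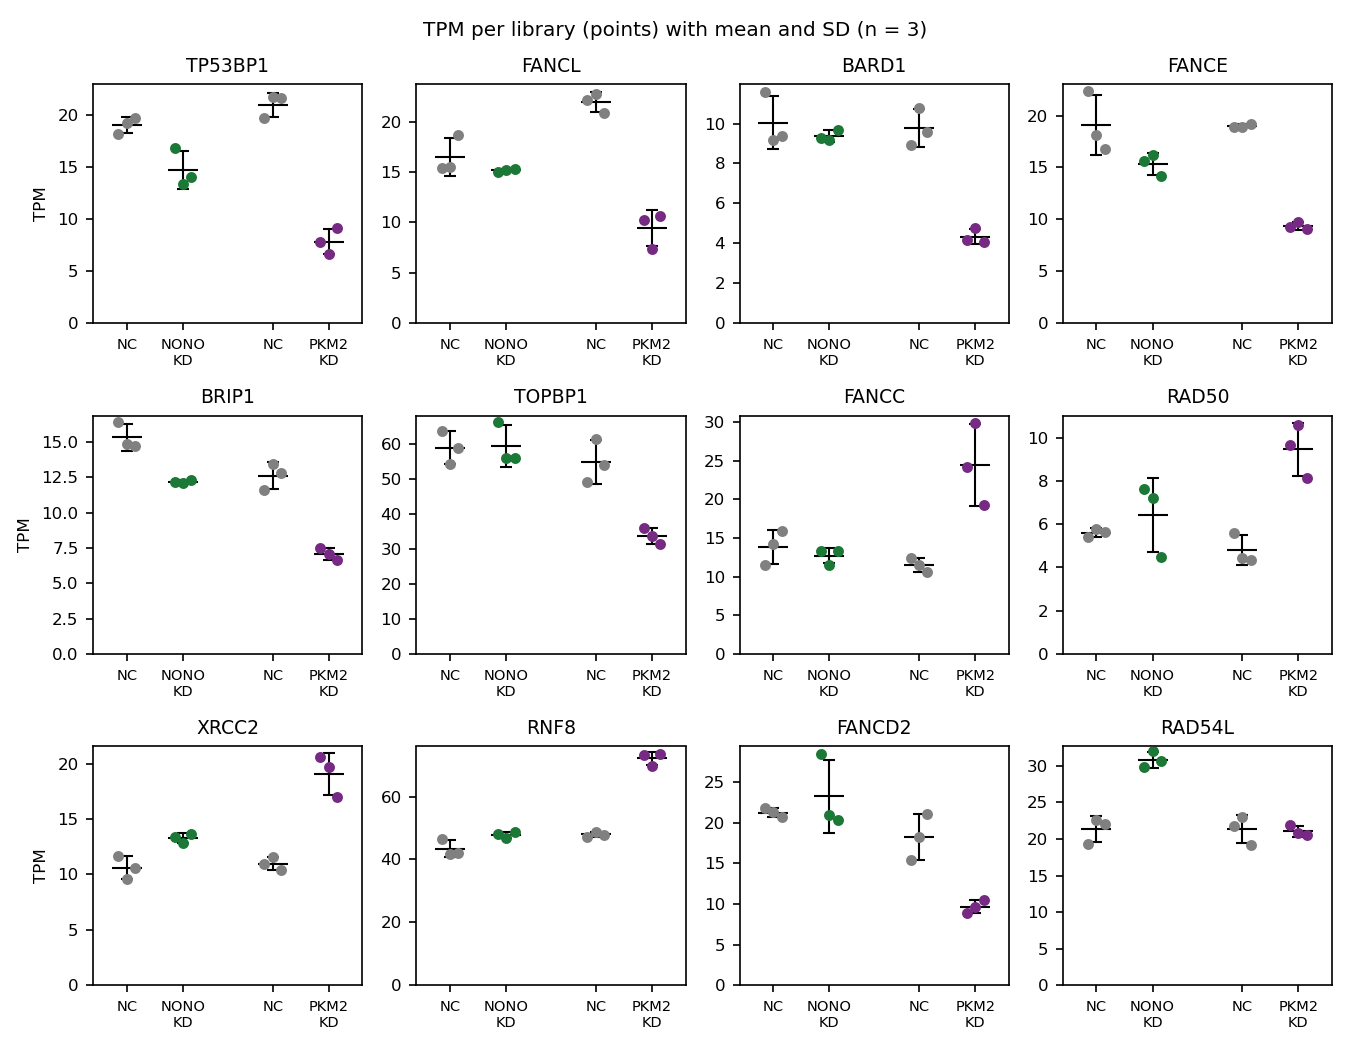
TPM of 12 genes in every library, with axes from 0. Points are libraries, bars the mean and SD of 3 libraries, gray is NC, green NONO knockdown and purple PKM2 knockdown. TP53BP1, FANCL, BARD1, FANCE, BRIP1, TOPBP1 and FANCD2 are lower and FANCC, RAD50, XRCC2 and RNF8 higher in all 3 PKM2 knockdown libraries than in their NC libraries, and RAD54L is higher in all 3 NONO knockdown libraries.

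Members with and without an E2F word in the promoter window differed in their counts after PKM2 knockdown. Of the 18 with a word, 11 fell and 4 rose (median log2 fold change -0.49), and of the 18 without one, 5 fell and 10 rose (median 0.21). Over all genes tested with a window, 38.5% of 1898 genes with a word fell and 35.7% rose, against 36.6% and 36.2% of 8746 genes without one. The word did not sort every gene, since FANCC and XRCC2 hold one and rose, and TP53BP1 holds none in this window and fell. After NONO knockdown, 5 members with a word rose and 1 fell, and 4 without one rose and 2 fell. In that experiment, 19.6% of 1877 genes tested with a word rose and 16.7% fell, against 17.7% and 18.9% of 8588 genes without one. Of the 36 windows, 8 lay at a start that under 50% of the coding transcripts share, namely those of EXO1, which holds a word, and of ATR, RAD50, CHEK1, RAD51B, TP53BP1, BRCA1 and RBBP8, which hold none. Among the other windows, 11 of 17 with a word fell and 3 rose after PKM2 knockdown, and 2 of 11 without one fell and 7 rose. Without PKM2 knockdown replicate 3, 11 of the 18 with a word fell and 5 rose, and 5 of the 18 without one fell and 11 rose. For the splits by transcript start and without knockdown replicate 3, the shares of all genes with and without a word were not counted. No test was made of these splits.

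The difference between the knockdowns was tested for each gene as an interaction over the 12 libraries. Each knockdown was made in its own experiment, so such a difference cannot be told apart from one between the experiments. The tables also differ in annotation, with an equal gene length for 97.4% of the shared identifiers. The change after PKM2 knockdown was lower than that after NONO knockdown for 20 genes and higher for 8, by edgeR's quasi-likelihood test with an adjusted P below 0.05, where 27.4% of all 15995 genes tested were lower and 25.7% higher. The median difference was -0.25 over the members and -0.02 over all genes. Without NC replicate 1 of the NONO experiment 20 were lower and 8 higher, where 25.7% and 25.1% of all genes were. Without PKM2 knockdown replicate 3, 19 were lower and 9 higher, where 27.3% and 25.4% of all genes were. In 13 of the 28 genes the estimates had opposite signs in the experiments, but only 3 of them were called in both (FANCD2, BLM and RNF168). The share of opposite signs over all genes was not counted. FANCC gave the largest difference, 1.22 (SE 0.1, PKM2 minus NONO), followed by FANCL (-1.09, SE 0.182), TP53BP1 (-1.09, SE 0.089), FANCD2 (-1.01, SE 0.084) and BARD1 (-0.93, SE 0.123). FANCD2 was called in opposite directions, rising after NONO knockdown and falling after PKM2 knockdown, as did BLM, while RNF168 did the reverse, with none of these 3 called on log2(TPM + 1) after NONO knockdown.

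On the count scale, ATM, CHEK1, BRCA1 and XRCC2 rose in both experiments, and TP53BP1, BRIP1 and RAD54B fell in both. By limma on log2(TPM + 1), these 3 falls were called in both experiments, and none of the 4 rises was called in both. For ATM the difference between the knockdowns was -0.04 (SE 0.111), for CHEK1 -0.14 (SE 0.075) and for BRCA1 0.04 (SE 0.082), and none of these was called. XRCC2 rose more after PKM2 knockdown (difference 0.53, SE 0.099) and RAD54B fell less (0.47, SE 0.120). RBBP8, BRCA2 and RAD52 were called in neither experiment.

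Other genes of these pathways were counted from lists, to be read against the 16.2% of all genes that rose and 17.2% that fell after NONO knockdown and the 33.6% and 34.7% after PKM2 knockdown. Of 29 other homologous recombination factors, 7 rose and 2 fell after NONO knockdown, led by ABRAXAS1 (0.55) and SWI5 (0.43). After PKM2 knockdown, 9 rose and 9 fell (31% each), close to the share of all genes in both directions. In the PKM2 experiment BRCC3, the deubiquitinase of the BRCA1-A complex, fell by 2.85. The helicase HELQ rose by 1.01 there and the nuclease subunit MUS81 fell by 0.92. Of 14 other Fanconi factors, 4 fell after NONO knockdown and the rest were not called, and after PKM2 knockdown 6 fell and 7 rose, including FAAP24 (0.95), ERCC1 (-0.67) and FAAP100 (-0.65). Of the other checkpoint factors, 7 of 18 tested rose and 2 fell after NONO knockdown, with TIPIN at 0.71, RAD17 at -0.60 and SHLD2 at 0.59. After PKM2 knockdown 10 of 19 rose and 6 fell. The leading rises were H2AFX (1.51), the gene of histone H2AX, and SHLD2 (1.34), a subunit of the shieldin complex that acts downstream of TP53BP1. Of the other shieldin subunits, SHLD1 (1.21) was near the detection limit, at 0.485 ± 0.26 against 1.14 ± 0.358 CPM (SD, n = 3), and was not tested after NONO knockdown, and SHLD3 was not called (0.29, adjusted P = 0.151). Without NC replicate 1, 10 of the homologous recombination factors rose and 2 fell after NONO knockdown, 2 of the Fanconi factors rose and 4 fell, and 9 of 19 checkpoint factors rose and 2 fell. Without PKM2 knockdown replicate 3, these counts after PKM2 knockdown were 9 and 12, 6 and 6, and 9 and 6.

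Cell cycle genes moved in the same libraries. Of 20 G1/S and replication markers, 13 rose and 1 fell (CCNE1, by 0.91) after NONO knockdown, with a median of 0.27 and a summed level of 1788 to 2034 TPM in NC libraries and 2128 to 2178 TPM after knockdown. After PKM2 knockdown 13 fell and 2 rose, with a median of -0.37, and the sum went from 1957 to 1977 TPM in NC libraries to 1323 to 1411 TPM. CCNE1, the gene of cyclin E1, fell by 4.92, PCNA, the replication clamp, by 2.13 and CCNE2 by 1.76. The size of the CCNE1 fall is uncertain (SE 0.349). CCNE1 was near the detection limit after PKM2 knockdown, at 7.22 ± 1.42 CPM in NC libraries against 0.23 ± 0.16 CPM (SD, n = 3). Of 20 G2/M and mitosis markers, 14 rose after NONO knockdown and the other 6 were not called, while 10 rose and 5 fell after PKM2 knockdown, and their sum was 2435 to 2544 TPM against 2616 to 2675 TPM and 2245 to 2297 TPM against 2535 to 2599 TPM. Without NC replicate 1, 16 of the G1/S markers rose and 1 fell and 16 of the G2/M markers rose after NONO knockdown, and without PKM2 knockdown replicate 3, 2 rose and 13 fell and 11 rose and 6 fell after PKM2 knockdown. No gene of these lists was at 0 TPM throughout a group. The part of cell cycle phase in the changes of the 40 genes was not tested.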

How the data were processed

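Poly(A)-selected RNA of the 12 libraries was sequenced as paired reads of 150 bases, without molecular identifiers in the stated protocol. The authors deposited 1 table per experiment with estimated counts and TPM per gene and library, and the submitters' processing notes name fastp, HISAT2, StringTie, RSEM, DESeq2, edgeR, limma and the build hg19, with no roles or versions. Strand handling in counting is not given in the sources used here. Columns with the authors' fold changes, P values and group means were not used, and 0 columns of per-library values were left unused. Column names repeat between the tables, and each column was assigned through its table.

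Estimated counts were rounded to whole numbers and tested in R 4.3.3 with the quasi-likelihood test of edgeR 4.0.16 (TMM, filterByExpr, Benjamini-Hochberg adjustment over all genes tested), on the 6 libraries of each experiment, or on 12 for the interaction. Named CPM values are TMM-normalized. Alternatives were a replicate block, dropping the low-count filter, relative log expression factors, DESeq2 1.42.0, limma 3.58.1 on log2(TPM + 1) or log2(TPM + 0.1) where mean TPM reached 1, the former also unfiltered, the fold cutoff of 2, each library left out, and the trend with gene length taken out in 20 bins. Taking out trends with GC content and length, and leaving out promoter windows at starts of few transcripts, were added after seeing the data. Fits were tested on simulated data. Same-numbered libraries correlated at -0.065 to 0.036 in their deviations from the group means, so numbers were not taken to pair libraries. Chi-square per degree of freedom between replicates was 2.34 to 13.06, so none was 1 library deposited again.

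The members and lists were chosen with earlier results of these data known. Values in every library are given for BRCA1, BRCA2, ATM, ATR, CHEK1 and FANCD2, for the called members with the 6 largest falls and 4 largest rises per experiment, and for the 5 largest called differences. Gene overlaps come from GENCODE 29 (GRCh38) and promoters from RefSeq (GRCh38.p14), whose build differs from that of the authors, and serve for location and sequence only.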

Additional observations from a re-analysis of the deposited data

Results flagged for a closer look

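The change after PKM2 knockdown differed from that after NONO knockdown, by the interaction test, in 28 of the 40 genes. These differences cannot be told apart from differences between the experiments. The values below are the PKM2 minus the NONO log2 fold change.

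Among the sensors and kinases the difference was -0.26 for MRE11, 0.90 for RAD50, -0.26 for NBN, -0.37 for ATR and -0.78 for TOPBP1. Among the chromatin factors it was -1.09 for TP53BP1, 0.68 for RNF8 and 0.32 for RNF168. In the resection and helicase group it was 0.45 for EXO1, -0.78 for BLM and -0.30 for WRN. In the BRCA complexes it was -0.93 for BARD1, -0.80 for PALB2 and -0.58 for BRIP1. Among the BCDX2, XRCC3, RAD52 and RAD54 genes it was -0.58 for RAD51D, 0.53 for XRCC2, -0.59 for RAD52, -0.52 for RAD54L and 0.47 for RAD54B. In the Fanconi core group it was -0.34 for FANCA, 1.22 for FANCC, -0.65 for FANCE, -0.80 for FANCF, -0.42 for FANCG, -1.09 for FANCL and 0.40 for FANCM. In the ID2 complex it was -1.01 for FANCD2 and -0.15 for FANCI. The estimates had opposite signs in the experiments for 13 of these genes, of which only FANCD2, BLM and RNF168 were called in both. LRRC41, which overlaps RAD54L, was at 0.27 after NONO knockdown and -2.09 after PKM2 knockdown. Its part in the RAD54L difference was not tested. No group had more than 3 libraries, so single libraries were not tested for standing apart.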

How the results depend on the processing

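No called value of the named genes changed sign. Of their values that were not called, BRCA2 after NONO knockdown went from 0.135 to between -0.057 and -0.06 in the limma settings. BRCA2 after PKM2 knockdown went from -0.013 to 0.102 without knockdown replicate 3, 0.04 without NC replicate 2 and 0.106 with the length trend taken out. ATR after NONO knockdown went from -0.009 to between 0.001 and 0.056 without NC replicate 1, without knockdown replicate 1 and with either trend taken out. FANCC after NONO knockdown went from -0.054 to 0.001 without knockdown replicate 2. Further values that were not called also changed sign with 1 library left out. They were RAD50, TOPBP1, RAD51D, XRCC3 and FANCM after NONO knockdown, and WRN and RAD54L after PKM2 knockdown. The ratio of mean TPM had the opposite sign to the count estimate for 5 members after NONO knockdown (TOPBP1, BRCA2, RAD51D, FANCM and FANCI) and 1 after PKM2 knockdown (RAD54L), none of them called. After NONO knockdown, limma on log2(TPM + 1), on log2(TPM + 0.1) and on log2(TPM + 1) without the filter called 6, 7 and 4 members (3, 4 and 3 higher, and 1 lower in the last), and the median was 0.047, 0.048 and 0.047. The fold cutoff of 2 left 0 members, 0 lower and 0 higher. The median was 0.132 without the trend with gene length and 0.133 without those with GC content and length. Leaving out 1 library gave 13 to 24 called (10 to 18 higher, 3 to 6 lower) and a median of 0.084 to 0.131. The highest counts came without NC replicate 1. After PKM2 knockdown, limma gave 8, 8 and 6 higher, 20 called in the last setting, and a median of -0.228, -0.237 and -0.228. The fold cutoff left 5 (3 lower, 2 higher), and the median was -0.041 without the length trend. For the difference, limma gave 13, 13 and 11 lower, with 15 called and 4 higher in the last setting, and the fold cutoff left 4 (3 lower, 1 higher). The shares of all genes called in the limma settings, and those past the fold cutoff for the difference, were not counted. The cause was not tested.

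With a replicate block, 13 members were called after NONO knockdown, 32 after PKM2 knockdown and 27 for the difference, although the numbers do not pair the libraries. The shares of all genes called with the block were not counted. In the settings with a test, 170 of 195 values of named genes stayed on their side of the threshold after NONO knockdown, 202 of 208 after PKM2 knockdown and 95 of 95 for the difference. With a trend taken out, which gives no test, 30 of 30, 21 of 32 and 8 of 10 moved by less than 1 SE. With 3 libraries per group and strand handling unknown, counts of overlapping genes stay uncertain.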
